A study of Mus musculus with 4 samples.

Results

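Fc receptors and the adaptors that carry their signals were examined in white adipose tissue of mice on 2 diets, high in fat (HFD) and low in fat (LFD). The set was 9 genes: the IgG receptors Fcgr1, Fcgr2b, Fcgr3 and Fcgr4, the adaptors Fcer1g and Tyrobp, the kinase Syk, and the myeloid surface receptors Trem1 and Pirb. Members were chosen by gene name among the non-control probes of the arrays, out of 27617 gene names and 41174 probes in all. The names of 8 were found as written, with 14 probes, and Pirb was found through its transcript accession, under the older name Lilrb3, with 2 probes.

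White adipose tissue came from female C57BL/6 mice, an inbred laboratory strain, that began HFD or LFD at 8 weeks of age and stayed on it for 18 weeks. Each diet had 2 one-colour arrays, and each sample was tissue mixed from 3 mice. The fat depot is not given in the sources used here, nor is it stated whether the 2 replicates of a diet were separate pools. So the p-values rest on the spread of these 4 samples alone, and that spread may be technical. No genotype other than the strain is given, and the animals on LFD received the colony's standard chow.

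Fc gamma receptors bind the constant part of IgG. Fcgr1, Fcgr3 and Fcgr4 are activating receptors whose signals run through the common gamma chain, encoded by Fcer1g. Tyrobp, also called DAP12, is the adaptor of Trem2, Trem1 and many other receptors of myeloid and natural killer cells. Both adaptors carry an ITAM, a tyrosine motif that is phosphorylated by Src family kinases and then binds Syk. Fcgr2b and Pirb carry the opposing ITIM, which recruits phosphatases. In fat, macrophages are a main carrier of these genes, and macrophages are known to gather there in diet-induced obesity.

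The probe for Tyrobp is shown because it gave the highest change of the set. It lies on the plus strand of chromosome 7 at chr7:31200651-31202378 (mm9), a span longer than the 60-base probe. Capitals mark TAT and CTT with 6 bases between them, a tyrosine codon and a leucine codon at the spacing of an ITAM when read in that frame. The reading frame was not checked. Counted on either strand, this pattern occurred in 3.93% of the 41174 probes.
Tyrobp probe: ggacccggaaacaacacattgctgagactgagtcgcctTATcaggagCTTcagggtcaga

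The 250 bases before the transcription start are shown for the 4 IgG receptors, which share a ligand but differ in the sign of their signal. Sequences are from RefSeq, build GRCm38.p6, in the direction of each gene, and 8 of the 9 members had an entry. A pair of motifs was searched on both strands. One was GAGGAA, the core bound by the myeloid factor PU.1. The other was TTCNNNGAA, the GAS element bound by STAT factors. Capitals mark matches, so TTCCTC is GAGGAA on the opposite strand. The windows are chr3:96293970-96294219 on the minus strand for Fcgr1, chr1:171059404-171059653 on the minus strand for Fcgr3, chr1:171018676-171018925 on the plus strand for Fcgr4 and chr1:170976072-170976321 on the minus strand for Fcgr2b.
Fcgr1: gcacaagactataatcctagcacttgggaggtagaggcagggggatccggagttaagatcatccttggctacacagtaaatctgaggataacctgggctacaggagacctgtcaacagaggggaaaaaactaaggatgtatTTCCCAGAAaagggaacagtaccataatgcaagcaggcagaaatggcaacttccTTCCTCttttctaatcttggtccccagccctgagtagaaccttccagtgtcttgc
Fcgr3: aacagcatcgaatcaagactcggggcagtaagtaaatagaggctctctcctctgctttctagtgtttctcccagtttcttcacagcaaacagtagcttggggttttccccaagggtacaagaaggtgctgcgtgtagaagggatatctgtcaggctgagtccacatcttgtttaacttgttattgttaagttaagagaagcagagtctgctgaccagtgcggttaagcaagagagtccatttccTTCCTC
Fcgr4: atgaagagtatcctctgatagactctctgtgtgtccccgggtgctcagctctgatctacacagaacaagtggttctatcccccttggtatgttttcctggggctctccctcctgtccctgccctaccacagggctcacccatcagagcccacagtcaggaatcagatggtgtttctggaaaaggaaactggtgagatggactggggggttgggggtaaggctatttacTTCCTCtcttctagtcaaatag
Fcgr2b: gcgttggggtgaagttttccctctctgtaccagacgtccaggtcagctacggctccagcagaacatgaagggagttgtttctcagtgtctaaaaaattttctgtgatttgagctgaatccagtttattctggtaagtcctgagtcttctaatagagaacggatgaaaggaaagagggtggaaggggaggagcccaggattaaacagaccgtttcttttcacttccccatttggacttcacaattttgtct

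GAGGAA was present before Fcgr1, Fcgr3 and Fcgr4 and absent from the window before Fcgr2b. Over the set it occurred before at least 1 start of 6 members, Fcgr1, Fcgr3, Fcgr4, Pirb, Syk and Trem1, against 25.9% of all 27025 genes in the table. TTCNNNGAA occurred before 2 members, Fcgr1 and Trem1, against 8.13% of genes. In Fcgr1 the GAS letters lay 105 bases and the PU.1 letters 52 bases before the start. In Trem1 the 2 motifs abut without overlapping. A match is a description of letters, and factor binding was not measured.

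The arrays held 21312 to 27937 probes well above background, with the fewest on HFD replicate 2, and no saturated spot. LFD replicate 1 stood apart in lymphocyte genes. The summed signal of 7 B cell markers, in units of the array's 75th percentile, was 1.54 and 2.17 on the HFD arrays, against 6.09 and 1.24 on the LFD arrays. Values below are log2 signal relative to each array's 75th percentile, given for replicates 1 and 2 in that order, and levels of different probes are not compared. Testing covered the 26057 probes that, in 1 diet or both, were well above background on each of its 2 arrays. The test was limma with Benjamini-Hochberg adjustment over those probes and a threshold of 0.05.

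All 14 tested member probes, covering 8 genes, were higher in HFD. The changes ran from 0.77 to 1.72 on the log2 scale, with adjusted p between 0.0140 and 0.0364. Of all tested probes 5.38% were called higher and 5.27% lower. By gene, with 1 probe each, all 8 tested members were called higher, against 5.69% of 17739 genes called higher and 5.61% called lower. The median change of the 8 genes was 1.43, and that of all tested genes was 0.019. Both HFD arrays lay above both LFD arrays for each of the 14 probes, as they did for 35.1% of all tested probes and 36.0% of genes. In a fit that leaves out 1 array, the spread comes from the 2 arrays of the other diet alone. Such a fit has 1 residual degree of freedom, against 2 in the main fit. SDs of the member probes were larger in LFD (0.040 to 0.366) than in HFD (0.011 to 0.085). All 14 changes stayed positive in each such fit, but calls were lost. Without HFD replicate 1 or HFD replicate 2 none of the 14 probes passed (adjusted p 0.0599 to 0.140 and 0.0678 to 0.182), and without LFD replicate 1 or LFD replicate 2, 10 did. With dim probes left in the test none passed (adjusted p 0.107 to 0.146), with the changes themselves unmoved. In whole tissue, more cells that carry these genes and more RNA per cell cannot be told apart.

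**Figure D1:**
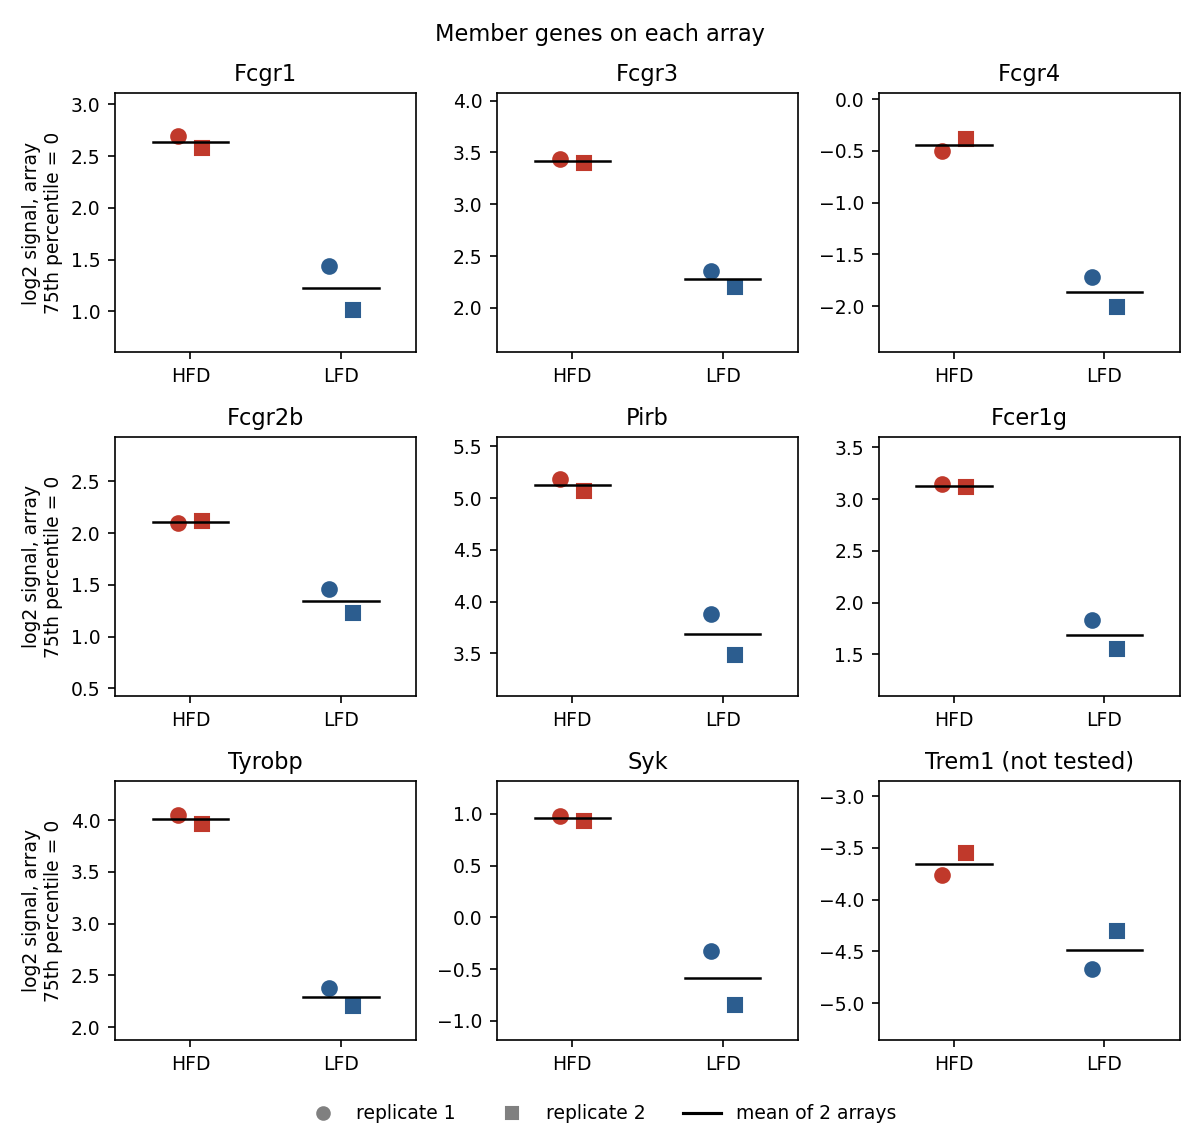
Log2 signal of each member on the 4 arrays, 1 panel per gene, with every panel spanning the same range of log2 units. Circles are replicate 1, squares replicate 2 and bars the mean of 2 arrays; HFD lies above LFD in every panel, and Trem1 was not tested.

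Among the activating receptors, Fcgr1 encodes the high-affinity IgG receptor. Its brightest probe, chr3:96088140-96088199 on the minus strand (mm9), read 2.69 and 2.58 on the HFD arrays, against 1.44 and 1.02 on the LFD arrays. The diets did not overlap, and the LFD arrays lay further apart than the HFD arrays. The difference was 1.41 (SE 0.18, 95% interval 0.93 to 1.88, adjusted p = 0.0261 in limma), or 2.65-fold. A dimmer probe of Fcgr1 gave 2.55-fold.

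Fcgr3 encodes a low-affinity activating receptor that mouse macrophages, natural killer cells and mast cells carry. It read 3.43 and 3.40 in HFD, against 2.35 and 2.20 in LFD. Both diets were tight, and the gap between them was 1.14 (SE 0.10, adjusted p = 0.0180), or 2.21-fold. The other Fcgr3 probe gave 1.90-fold. The extracellular parts of Fcgr2b and Fcgr3 are known to be very alike, and hybridisation of one transcript to the other's probe was not tested.

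Fcgr4 encodes an activating receptor of mouse monocytes, macrophages and neutrophils. It read -0.50 and -0.39 in HFD, against -1.72 and -2.01 in LFD. The values were well separated, with a difference of 1.42 (SE 0.14, adjusted p = 0.0200), or 2.67-fold.

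Fcgr2b is the inhibitory IgG receptor, found on macrophages and also on B cells. Its probe printed at 10 spots read 2.10 and 2.12 in HFD, against 1.46 and 1.23 in LFD. The 10 spots of 1 array had an SD of 0.039 to 0.055, which is printing and reading noise only, while the SD between the 2 LFD arrays was 0.16. The difference was 0.77 (SE 0.12, 95% interval 0.44 to 1.09, adjusted p = 0.0364), or 1.70-fold. The other 2 probes gave 1.76-fold and 1.72-fold, so the 3 probes of Fcgr2b had the smallest changes among the 14. B cell markers were highest on LFD replicate 1, as given above, and their part in the Fcgr2b value was not tested. Without that array the difference was 0.88, and the adjusted p was 0.0559.

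Pirb encodes a paired immunoglobulin-like receptor with ITIMs that binds MHC class I. It read 5.19 and 5.07 in HFD, against 3.88 and 3.49 in LFD. The difference was 1.44 (SE 0.17, adjusted p = 0.0240), or 2.72-fold. A second probe, which shares 50 bases with the first, gave 2.66-fold and is not an independent reading. Pirb belongs to a family with closely related activating Pira genes, and which transcripts its probes bind was not tested. Of the Pira genes, Pira6 rose 2.21-fold (adjusted p = 0.0208).

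Fcer1g, the common gamma chain, read 3.14 and 3.12 in HFD, against 1.83 and 1.55 in LFD. The HFD arrays nearly coincided, and the difference was 1.44 (SE 0.13, adjusted p = 0.0180), or 2.71-fold. A second Fcer1g probe, sharing only 8 bases with it, gave 2.62-fold.

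Tyrobp read 4.05 and 3.96 in HFD, against 2.38 and 2.20 in LFD. Its difference of 1.72 (SE 0.11, 95% interval 1.41 to 2.02, adjusted p = 0.0140), or 3.29-fold, was the largest point estimate of the set. Syk, the kinase that binds phosphorylated ITAMs, read 0.98 and 0.93 in HFD, against -0.33 and -0.85 in LFD. The LFD arrays were far apart for Syk, and the difference of 1.54 (SE 0.20, adjusted p = 0.0275), or 2.91-fold, had the widest 95% interval among the 8 genes.

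Trem1 encodes a receptor of neutrophils and monocytes that signals through Tyrobp. Its brighter probe read -3.77 and -3.55 in HFD, against -4.67 and -4.30 in LFD. It was well above background on 1 array of each diet, so it was not tested, and its other probe was above background on no array. No fold is given for Trem1.

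**Figure D2:**
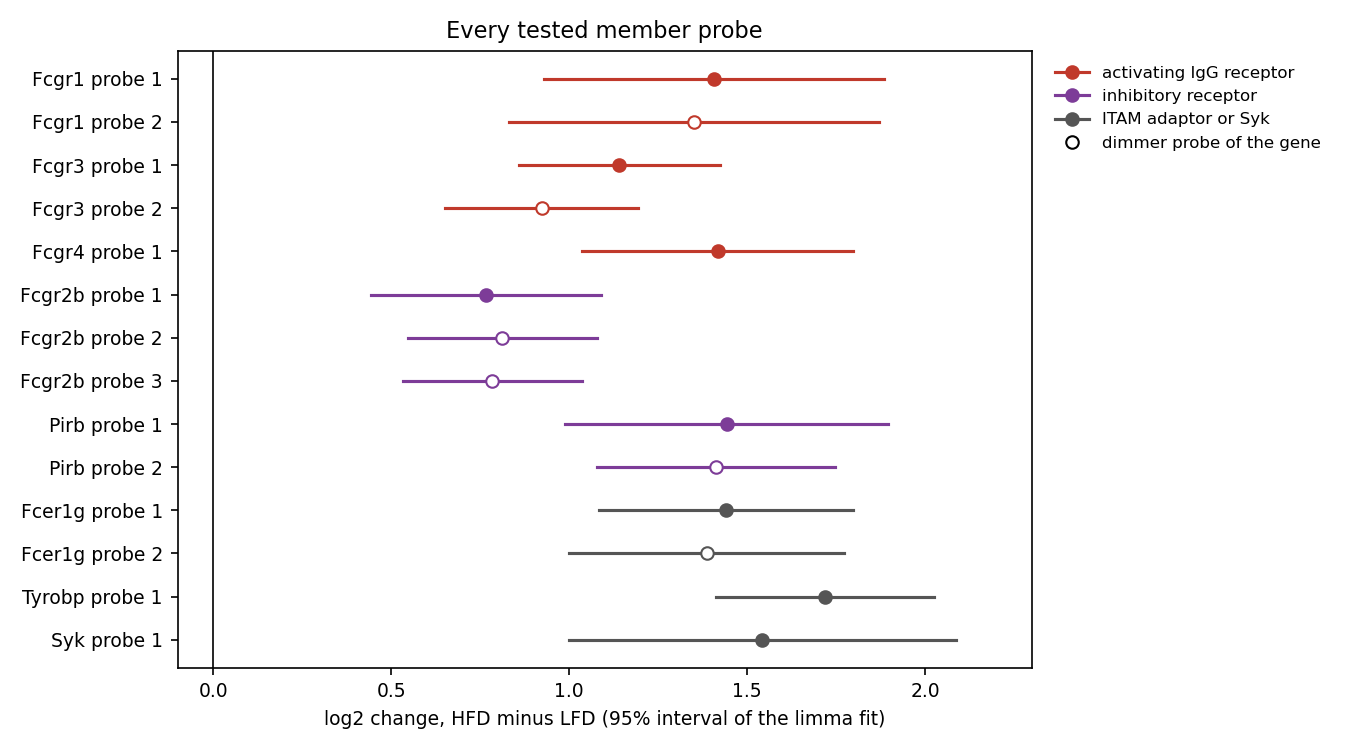
Log2 change, HFD minus LFD, with its 95% interval for each of the 14 tested member probes; filled points are the brightest probe of a gene and open points its other probes. All intervals lie above 0, between 0.44 and 2.09, and the 3 Fcgr2b probes have the smallest estimates.

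Ordered by change, the genes ran Tyrobp, Syk, Pirb, Fcer1g, Fcgr4, Fcgr1, Fcgr3 and Fcgr2b. The 95% interval of each overlapped that of its neighbour in this order. The replicates also differed in a shared direction: all 14 probes were higher on LFD replicate 1 than on LFD replicate 2, against 39.2% of all tested probes. SDs over the 2 arrays of a diet ran from 0.011 to 0.085 in HFD and from 0.040 to 0.366 in LFD.

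The activating receptors were set against Fcgr2b within each array, since both kinds bind IgG. Fcgr1 minus Fcgr2b was 0.59 and 0.46 on the HFD arrays, against -0.01 and -0.21 on the LFD arrays. The balance of these probes was thus 1.56-fold higher in HFD. Fcgr4 minus Fcgr2b was -2.60 and -2.51 in HFD, against -3.17 and -3.23 in LFD, a 1.57-fold difference. Fcgr3 minus Fcgr2b was 1.34 and 1.28 in HFD, against 0.90 and 0.97 in LFD, a 1.30-fold difference, or 0.37 on the log2 scale, which became 0.24 when all probes of a gene were averaged. None of these 3 had overlapping diets, yet with 2 arrays against 2 the two-sided exact permutation test cannot go below p = 0.333, the value of each before and after adjustment over the 3. These ratios show unequal change between probes and not that any one of them held still.

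**Figure D3:**
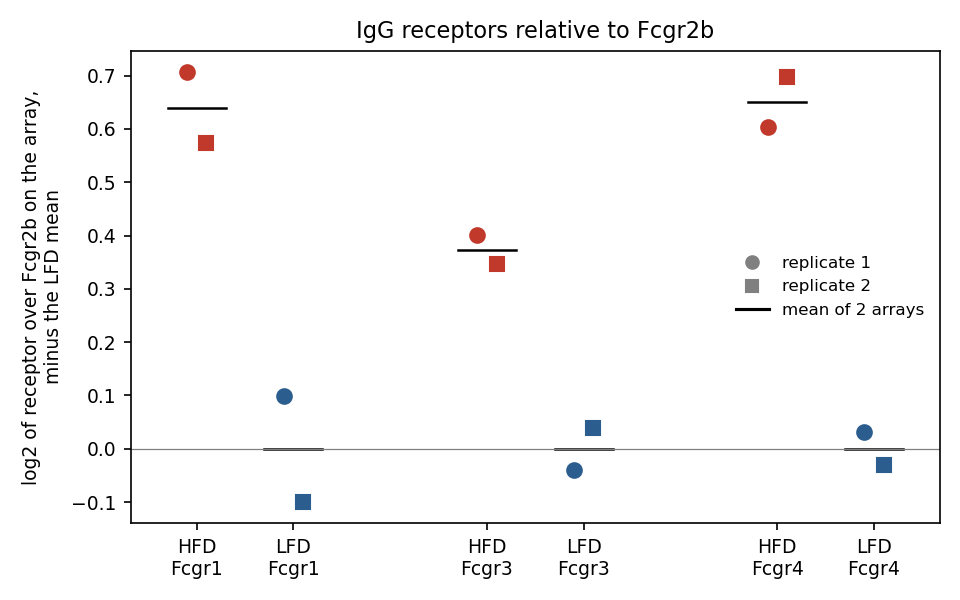
Log2 signal of 3 activating receptors minus that of Fcgr2b on the same array, shifted so that the LFD mean of each is 0. Circles are replicate 1, squares replicate 2 and bars the mean of 2 arrays; HFD means lie 0.64 (Fcgr1), 0.37 (Fcgr3) and 0.65 (Fcgr4) above LFD.

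Macrophage markers moved with the members. Of 10 such markers 7 rose and none fell, and their summed signal was 322 and 342 in HFD, against 212 and 190 in LFD. Lyz2 made up much of that sum. Its brightest probe differed by 0.42 and did not pass the test (adjusted p = 0.0824), while its other probe differed by 1.32. Without Lyz2 the sum was 140 and 145 in HFD, against 63.1 and 55.0 in LFD. Adgre1, which encodes F4/80, rose 3.13-fold, Cd68 4.86-fold and Csf1r, the receptor for macrophage growth factors, 1.74-fold (adjusted p = 0.0137, 0.0137 and 0.0242). The part of macrophage number in the member values was not tested.

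The members' changes relative to a macrophage marker differed with the marker. Relative to Csf1r, whose change was the smallest of the 3, Tyrobp was 0.57 and 0.40 in HFD, against -0.36 and -0.51 in LFD, a difference of 0.92. The other members except Fcgr2b differed by 0.34 to 0.74 in the same direction without overlap, and Fcgr2b by -0.03 with overlapping diets. Relative to Cd68 all 8 members had negative differences, -0.56 for Tyrobp and -1.51 for Fcgr2b. Relative to Adgre1, only Tyrobp had a positive difference, 0.07. The other members ran from -0.10 for Syk, with overlapping diets, to -0.88 for Fcgr2b. The planned yardstick was the median of the 3 markers on each array, which is set by probe brightness and was Csf1r on every array. With all probes of a gene averaged, that median was Adgre1 on the HFD arrays and Csf1r on the LFD arrays. The differences from it were then 0.32 for Tyrobp, 0.14 for Syk, 0.03 for Pirb and 0.02 for Fcgr4. They were 0.01 for Fcer1g, -0.02 for Fcgr1, -0.37 for Fcgr3 and -0.61 for Fcgr2b. These values include the gap in level between Adgre1 and Csf1r, so they are not changes relative to a single marker. By the values relative to Csf1r, Cd68 and Adgre1 above, the excess over a marker depended on the marker used. The comparisons with Cd68 and Adgre1 were added after seeing the data, and the exact permutation p was 0.333 at best.

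Other immune cells were less uniform. Of 6 tested neutrophil markers 2 rose, S100a8 11.4-fold and Csf3r 1.86-fold. S100a9, the partner of S100a8, differed 1.23-fold (adjusted p = 0.288), Retnlg, Ltf and Mpo did not pass, and Cxcr2, Ngp, Elane and Camp were above background on no array. The summed neutrophil signal was 2.60 and 2.51 in HFD, against 1.15 and 0.99 in LFD, and without S100a8 it was 1.38 and 1.30 in HFD, against 1.06 and 0.88 in LFD. Of natural killer markers 1 of 5 tested rose, of monocyte markers 1 of 6, and of mast cell, B cell and T cell markers none. An unadjusted p under 0.05 in limma was reached by 3 of 6 monocyte, 3 of 6 tested neutrophil and 2 of 5 natural killer markers. It was also reached by 1 of 6 mast cell, 2 of 5 B cell and 0 of 5 T cell markers. Of 7 dendritic cell markers none was called higher and 1, Siglech, was called lower, a call that rests on HFD signal below background. Of 3 tested eosinophil markers 2 rose, Ear1 5.05-fold and Ccr3 2.13-fold, and Prg2 differed by -0.26 (adjusted p = 0.703). The eosinophil markers Siglecf, Epx and Il5ra were too dim to test. All 6 mesothelial markers fell. None of 8 adipocyte markers passed the test, although 3 had an unadjusted p under 0.05 in limma. How far these cells contribute to the member values was not tested.

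The wider signalling route was followed in 7 lists, together 117 genes, of which 96 were tested, 36 were called higher and 2 lower. Siglech, among the lower calls, entered the test only through the LFD arrays, as given below. The median change of the tested genes was 0.73, against 0.019 over all tested genes and 5.69% of genes called higher. The lists were drawn up with earlier results of these data known.

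Of 8 tested Fc receptors outside the set, none passed the test, and the median change was -0.15. Fcgrt, the neonatal Fc receptor that recycles IgG, read 3.72 and 3.77 in HFD, against 4.05 and 3.87 in LFD (adjusted p = 0.250). Fcrls read 1.79 and 2.10 in HFD, against 1.51 and 1.18 in LFD (adjusted p = 0.105), and it passed with normexp background correction (adjusted p = 0.0405). A difference between these receptors and the members was not tested. Fcer1a, the IgE-binding chain that pairs with Fcer1g on mast cells, differed by 0.01 (adjusted p = 0.952). In limma 1 of the 8, Fcrls, had an unadjusted p under 0.05, and Fcrl5 had an adjusted p of 0.388.

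The other signalling adaptors did not pass either: none of 7, with a median of -0.02, and 1 with an unadjusted p under 0.05 in limma. Hcst, which encodes DAP10, differed by 0.62 (SE 0.34, adjusted p = 0.270). The B cell receptor chain Cd79a and the T cell receptor chain Cd3e had adjusted p of 0.0824 and 0.166. Cd79b read -0.19 and 0.17 in HFD, against 1.60 and -0.87 in LFD, so LFD replicate 1 was the highest of the 4 arrays.

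Receptors that couple to Tyrobp or Fcer1g rose in 7 of 13 tested cases and 1 was called lower. Trem2, a lipid-sensing receptor of macrophages that signals through Tyrobp, read 4.59 and 4.26 in HFD, against 1.34 and 1.62 in LFD, a 7.70-fold difference (adjusted p = 0.0137). Cd300c2, named AF251705 in the files, rose 6.64-fold and Cd300ld 2.94-fold. The pathogen-sensing lectins Clec4e, Clec4n and Clec5a rose 3.21-fold, 2.47-fold and 1.99-fold, named here after their values were seen, as is Pira6. Clec4d read -0.77 and -1.05 in HFD, against -3.67 and -2.01 in LFD, and did not pass (adjusted p = 0.106). The 1 lower gene, also named after seeing it, was Siglech, a plasmacytoid dendritic cell receptor. It entered the test only through the LFD arrays, since neither HFD array had it well above background, so its p rests on HFD signal below background. Measured means were -6.06 in HFD and -3.28 in LFD (adjusted p = 0.0346 in limma). The lowest signal well above background was -4.38 on HFD replicate 1 and -3.18 on HFD replicate 2. The floor of HFD replicate 2 lies above the LFD mean, so that array cannot show a decrease. With the 2 floors averaged, the bound is 1.42-fold lower in HFD, and it rests on HFD replicate 1.

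**Figure D4:**
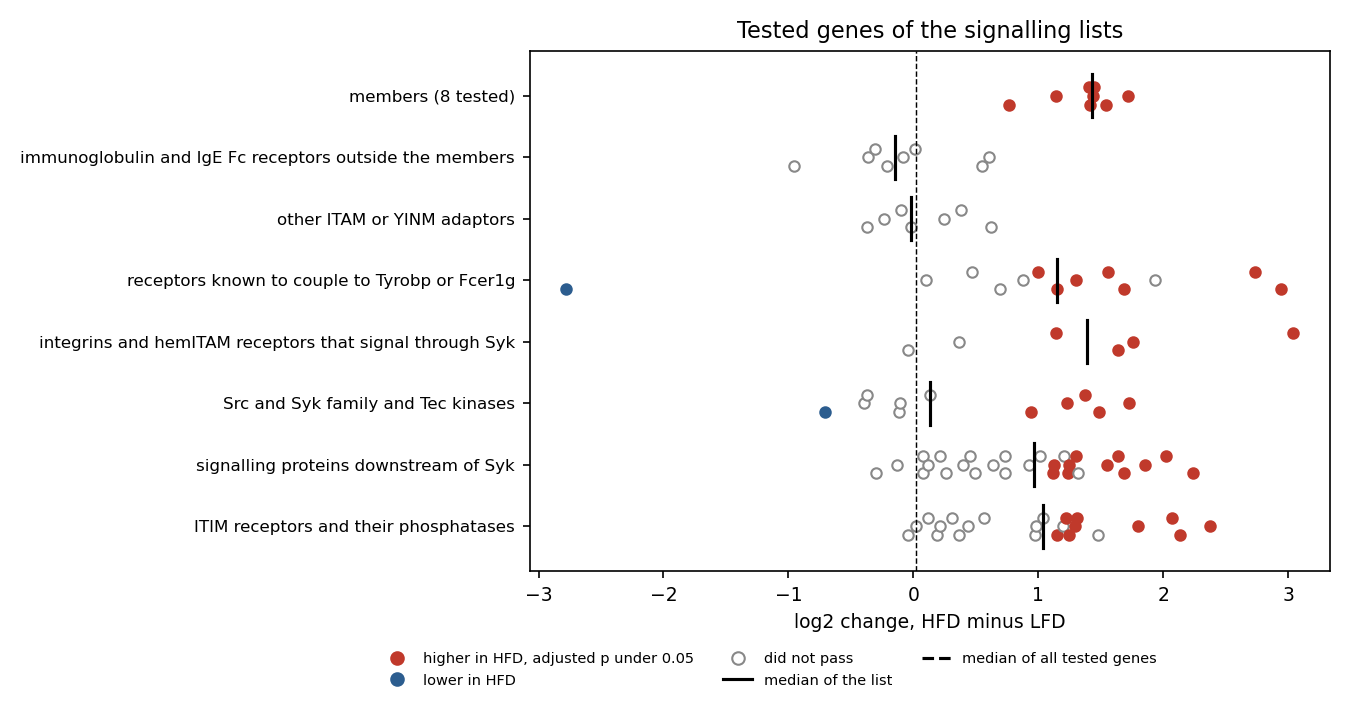
Log2 change, HFD minus LFD, of each tested gene in the member set and in 7 lists of the signalling route; the solid bar is a list's median and the dashed line the median of all tested genes, 0.019. Medians run from -0.15 for the other Fc receptors to 1.43 for the members. The isolated blue point near -3 is Siglech, whose HFD signal was below background.

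Integrins and Syk-coupled lectin receptors rose in 4 of 6 cases. Itgb2, the beta chain of leukocyte integrins, rose 3.38-fold and Clec7a, the receptor for fungal glucans, 3.12-fold. Itgax, which encodes CD11c, rose 8.23-fold on its brightest probe, while its second probe differed by -0.95, so its direction depended on the probe. Among Src, Syk and Tec family kinases 5 of 11 rose and 1 fell. Tec, which gives the Tec family its name, rose 2.59-fold (adjusted p = 0.0210).

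Downstream of Syk, 11 of 28 tested genes rose and none fell. Cyba, a membrane subunit of the phagocyte oxidase, rose 3.11-fold, Pik3ap1, an adaptor for phosphoinositide 3-kinase, 3.22-fold and Sh3bp2, an adaptor that binds Syk, 2.35-fold. ITIM receptors and phosphatases, the opposing arm, rose in 9 of 23 cases with none lower. Clec4a2 rose 3.48-fold and Dok1 2.37-fold. Cd300a rose 5.18-fold on its brightest probe, and its other probe differed by 0.66. The medians of these lists, 0.97 downstream of Syk and 1.04 for the ITIM arm, were both positive.

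Among 14057 genes, those nearest to Tyrobp over the 4 arrays were Itgb2, Clec4b1, Capg, Prps1 and Adgre1. Likeness was the root mean square difference of log2 profiles centred on each gene's mean, and it was 0.025 for Itgb2 and 0.050 for Adgre1. Nearest to Fcer1g were Clec4a3, Tec, Ifi30, Pltp and Naip2, at 0.028 to 0.047. With 4 arrays in 2 diets, such likeness rests mainly on a change of similar size. These are descriptions over 4 points that share the diets.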

How the data were processed

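Spot intensity values are scanner output that the authors deposited. Per the file headers, Feature Extraction subtracted background and detrended each array, and arrays were not normalised to each other. Version 11.0.1.1 stands in the headers, and 11.5.1.1 in the submitters' processing notes. A deposited value table gives, as a ratio, each signal over its array's 75th percentile. It is linear and uncentred, as found by comparison with the scanner signals, and served as an alternative.

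Each array had 45018 spots, 43379 of them not controls. Outlier-flagged spots (60 to 115 per array) were left out, spots of 1 probe were averaged, and log2 of the processed signal, scaled to each array's 75th percentile, was tested in limma 3.58.1 under R 4.3.3 (two-sided moderated fit by lmFit with eBayes; 2 residual and 2.24 prior degrees of freedom). Outputs were handled with pandas 2.3.3, numpy 2.4.6 and matplotlib 3.10.9. The fit was tested on simulated data. The 4 arrays shared 1 slide and 1 scan, and their number limits the precision. Where a gene had several tested probes, the brightest on average stood for it. Symbols of 27668 probes were matched through accessions to RefSeq (GRCm38.p6); probe coordinates are the files' own, in mm9, and exon or UTR annotation was not used here. Each sample received 500 ng of total RNA, per the labels.

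Members and lists were chosen with earlier results of these data known. Named genes were all members, the 3 tested genes of smallest p per signalling list, the first 3 markers of a marker list where described, the 5 genes most alike to Tyrobp and to Fcer1g, and Trem2 and Cd68. A few genes covered by this rule are not reported here. Other genes are named because they were counted or stood apart, after their values were seen. A fold bound for a probe not above background sets the brighter diet's mean against a floor averaged over the dim arrays, each array's floor being its lowest signal well above background or the probe's own signal if higher. Alternatives were normexp (offset 50), scaling by quantiles or by the median, the deposited table, other filters, flagged spots kept, trend and robust eBayes, a replicate block, leaving out each array, the mean of a gene's probes and a threshold of 0.10.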

Additional observations from a re-analysis of the deposited data

How the results depend on the processing

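All 14 tested member probes kept a positive change under each alternative that was run, from 0.65 to 1.81 on the log2 scale, but their calls did not all hold. All 14 were called with normexp, quantile scaling, the deposited value table, flagged spots kept, trend and robust eBayes, and a filter for all 4 arrays. Under median scaling 13 were called (Fcgr2b, adjusted p = 0.0546). With no filter on dim probes none was called (limma adjusted p 0.107 to 0.146), nor was any probe of the array, although 8106 had an unadjusted p under 0.05; of the listed genes 0 then rose and 0 fell. Calls of the members were also lost when 1 array was left out. Without HFD replicate 1 or without HFD replicate 2 no member probe was called (adjusted p 0.0599 to 0.140 and 0.0678 to 0.182), and without LFD replicate 1 or LFD replicate 2, 10 of 14 were. In these fits the lone array of a diet is assumed to vary like the arrays of the other diet. Without an HFD array the spread is that of the LFD pair, which was the wider 1 for the members. Each of these fits also had 1 residual degree of freedom, against 2 in the main fit. The lost calls are thus no measure of the array left out. Leaving out 1 array gave 0 to 7 member genes called higher, 0 to 34 listed genes higher and 0 lower, 2 to 628 probes higher and 0 to 420 lower.

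No pairing by replicate number is given in the labels. Same-numbered deviations correlated at r = -0.0046 over 26057 probes, which cannot exclude pairing in part of the probes. With the replicate block 2 member probes and 1 member gene were called (adjusted p 0.0482 to 0.0714), with 12 listed genes higher and 0 lower, and 179 probes higher and 172 lower. Over all probes the main counts of 1403 higher and 1373 lower became 2223 higher with normexp, 2231 higher when all 4 arrays had to be above background (with 1 listed gene lower), 2470 and 2434 with trend and robust eBayes, and 3201 and 3151 at a threshold of 0.10. Median scaling gave 1179 higher and 1907 lower, so 38.2% of calls were higher, against 50.5%. Among the within-array differences, Fcgr4 minus Fcgr2b was 0.44 with normexp and Fcgr3 minus Fcgr2b 0.24 when all probes of a gene were averaged. With that average, the marker median was no longer Csf1r on the HFD arrays. The members' differences from it ran from -0.61 for Fcgr2b to 0.32 for Tyrobp, against -0.03 and 0.92. They then include the gap in level between different markers and are not changes relative to a single marker. Where the cause of such a shift is not in the alternative's own construction, it was not tested. All arrays lay on 1 slide, so no slide block could be fitted. Low signal limits Trem1, which gave no test.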
